A study of Rattus norvegicus with 7 samples.

Results

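The proteasome is the barrel-shaped protease that degrades ubiquitinated proteins in the cytosol and nucleus, and its subunits are encoded by the Psma, Psmb, Psmc and Psmd genes. These genes were described here in rat mesenchymal stem cells (rMSCs) on 3 culture surfaces. Members were all gene symbols that begin with Psm, continue with a, b, c or d and a number, and may end with a further letter or digit. The symbol chose 41 of the 17147 genes in the table, 20 with the letters a or b, which name the core particle, and 21 with the letters c or d, which name the regulatory particle. The rule read the symbol and no expression value. Of these symbols, 39 reached at least 1 FPKM (fragments corrected for the length of the transcript and the fragment total of the library) in at least 3 of the 6 film libraries and were tested: 18 in the core and 21 in the regulatory particle. The others were Psma8, the testis form of an outer ring subunit, and Psmb11, the thymic catalytic subunit, neither of which exceeded 0.137 FPKM in any library. The symbol also took in Psmc3ip, which encodes a factor of meiotic recombination and no proteasome subunit. Psma3l is given as a synonym of Psma3 in the RefSeq annotation of the GRCr8 assembly, so a single gene of that assembly occupied 2 members.

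The study asked which transcripts of rMSCs answered to a new degradable polyurethane during early adhesion. rMSCs were isolated from the bone marrow of a male Sprague-Dawley rat aged 6 weeks, and 20000 cells were seeded per surface and collected after 4 h. ISB-P is a film of a polycaprolactone-based polyurethane that contains propoxylated isosorbide, PCL is a film of polycaprolactone alone, both 16 mm in diameter, and TCP is bare tissue culture plastic. Poly(A) RNA of 3 ISB-P, 3 PCL and 1 TCP library was analysed here. All libraries come from primary cells for which no drug and no genetic change is stated, the methods name a single donor rat, and the study speaks of triplicate experiments without saying whether these were separate cultures. The p-values below measure only the spread between these libraries, which may be technical.

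In the working proteasome, substrates pass through an outer ring of Psma subunits into a chamber lined by Psmb subunits, of which only a few cut. The regulatory particle caps the barrel: its base of Psmc ATPases unfolds the substrate, its lid of Psmd subunits holds the deubiquitinase that removes the ubiquitin chain, and dedicated chaperones assemble the base. In cells exposed to interferon the catalytic subunits are replaced by induced counterparts, which shape peptides for antigen presentation, and when proteasome activity falls short many genes of the complex are raised together.

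The number of fragments behind each library is unknown. The deposited values summed to 539393 FPKM on TCP, between 542922 and 597954 on PCL and between 590628 and 660124 on ISB-P, where replicate 3 had the highest sum of all 7. Mesenchymal markers were present, with Thy1 between 925 and 1209.8 FPKM over the libraries, although Col1a2 was listed at 0 in every library. Their list summed to 17948 FPKM on TCP, 11551.5 to 13361 on PCL and 10224 to 13350 on ISB-P. Of the list, only Pdgfrb did not overlap between the films, at 154 to 177 FPKM on PCL and 86.6 to 110 on ISB-P. Nt5e and Eng did not exceed 12.9 and 19.2 FPKM. Of 9 blood cell markers in the table, 4 (Cd34, Cd3e, Hba1 and Hbb) were at 0 everywhere, while the summed level of the list, carried mainly by the macrophage genes Cd14 and Cd68, was 50.9 FPKM on TCP, 20.6 to 24.2 on PCL and 16.1 to 19.1 on ISB-P. Endothelial markers summed to at most 0.397 FPKM, and the adipocyte markers Adipoq and Plin1 to 4.79 FPKM on TCP and less than 1 on the films. In such bulk RNA, fewer cells of a type and less RNA per cell cannot be told apart. The part of these mesenchymal, macrophage, adipocyte and summed values in the differences between surfaces described below was not tested.

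Proteasome genes were abundant and close to each other in level per transcript length. In every library, the 41 members together held less than 1% of the summed FPKM: 0.613% on TCP, 0.769%, 0.804% and 0.860% in PCL replicates 1, 2 and 3, and 0.787%, 0.826% and 0.930% in ISB-P replicates 1, 2 and 3, the order used for all values below. The share was lower on TCP than in any film library and overlapped between the films. The median member stood at 87.2 FPKM on TCP, at 113, 110.2 and 134 on PCL and at 122, 123 and 152 on ISB-P. Few members stood apart at low levels: the induced catalytic genes Psmb8, Psmb9 and Psmb10, the assembly chaperones Psmd9 and Psmd10, the meiotic factor Psmc3ip, and the Psma3 symbol, which took only 16.2% to 22.0% of the sum of Psma3 and Psma3l.

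**Figure D1:**
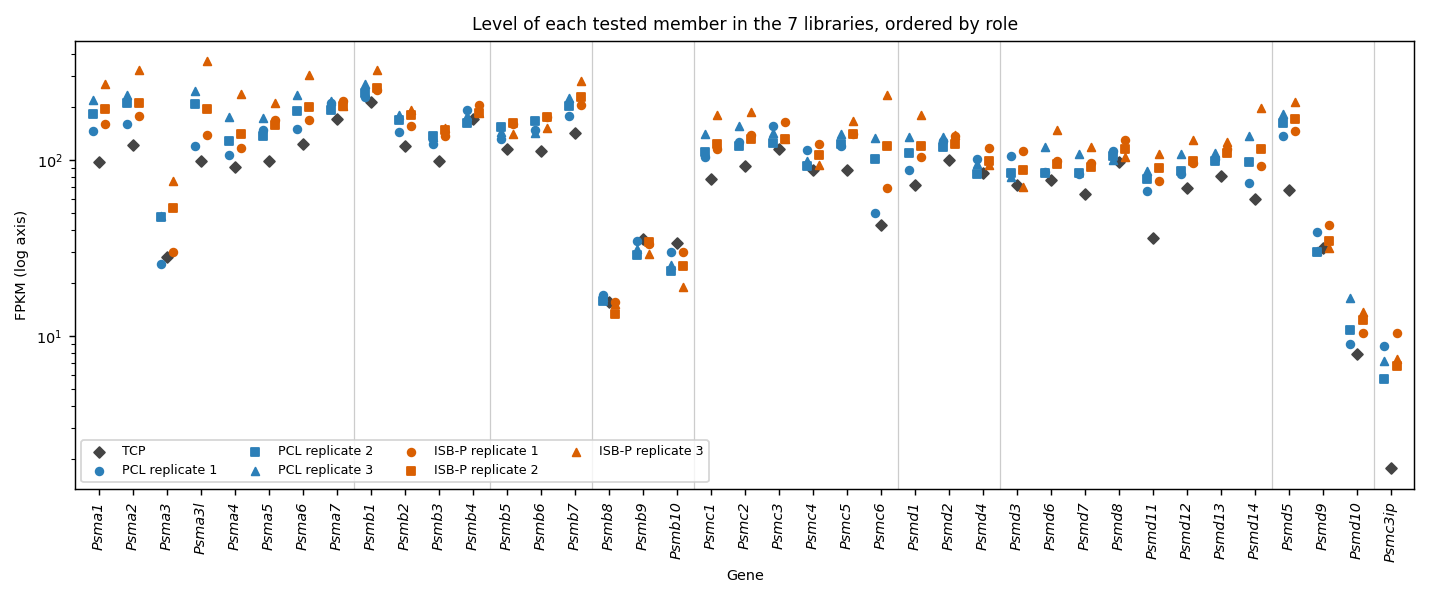
FPKM of the 39 tested members in each of the 7 libraries on a log axis, with grey lines between roles (outer ring, structural, catalytic and induced inner ring, ATPases, base, lid, assembly chaperones, Psmc3ip). Most subunits lie together near 100 FPKM, the TCP diamonds lie at the bottom of most columns, and the replicate 3 triangles of both films lie at the top of most outer ring columns and of Psmc6 and Psmd14.

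The 3 active sites of the inner ring are encoded by Psmb6 (caspase-like), Psmb7 (trypsin-like) and Psmb5 (chymotrypsin-like), and their induced counterparts are Psmb9, Psmb10 and Psmb8. The 120 bases before the RefSeq start of each gene are shown because the members of a pair are exchanged for each other in the same site of the ring while their promoters carry different letters. Capitals mark matches to the motifs spelled out further down: TGACNNNGC in Psmb5 and Psmb6, CCAAT (or ATTGG on the other strand) and CCGGAAG in Psmb7, CCAAT in Psmb8 and GAAA, any 2 bases, GAAA in Psmb10.
Psmb6 (GRCr8, chr10:55737768-55737887, plus strand): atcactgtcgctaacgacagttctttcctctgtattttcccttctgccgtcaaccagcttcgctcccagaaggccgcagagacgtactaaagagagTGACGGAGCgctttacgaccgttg
Psmb9 (GRCr8, chr20:4668880-4668999, plus strand): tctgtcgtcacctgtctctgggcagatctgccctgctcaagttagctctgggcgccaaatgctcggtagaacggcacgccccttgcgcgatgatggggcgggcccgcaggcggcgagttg
Psmb7 (GRCr8, chr3:42827471-42827590, minus strand): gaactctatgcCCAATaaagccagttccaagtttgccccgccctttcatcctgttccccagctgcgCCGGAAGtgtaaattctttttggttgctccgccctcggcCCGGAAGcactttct
Psmb10 (GRCr8, chr19:50743293-50743412, minus strand): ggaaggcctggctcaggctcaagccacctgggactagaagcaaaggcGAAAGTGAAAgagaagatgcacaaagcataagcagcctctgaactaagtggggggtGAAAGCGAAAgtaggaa
Psmb5 (GRCr8, chr15:32047380-32047499, minus strand): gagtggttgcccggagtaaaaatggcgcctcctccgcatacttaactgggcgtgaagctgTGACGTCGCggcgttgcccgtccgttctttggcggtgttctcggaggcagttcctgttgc
Psmb8 (GRCr8, chr20:4657032-4657151, minus strand): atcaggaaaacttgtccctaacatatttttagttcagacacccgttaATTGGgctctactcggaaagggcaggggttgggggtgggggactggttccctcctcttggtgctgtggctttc
The Psmb10 stretch held the interferon-stimulated type of letters at 2 places, 17 and 73 bases before the start, and none of the other letters searched. In Psmb8 the same letters crossed the start itself and are not marked, and Psmb9 held none of the searched letters in its 120 bases.

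The constitutive catalytic genes were expressed several times higher than the induced ones on every surface. Psmb6 measured 111 FPKM on TCP, 148, 165 and 143 on PCL and 176, 174 and 152 on ISB-P. Its counterpart Psmb9 measured 35.4 FPKM on TCP, 34.7, 28.6 and 31.3 on PCL and 33.2, 34.1 and 29.1 on ISB-P. Psmb6 was thus lowest on TCP and Psmb9 highest there, while the values of the films overlapped for both genes.
Psmb7 measured 142 FPKM on TCP, 176, 201 and 225 on PCL and 204, 228 and 281 on ISB-P, and Psmb10 measured 33.8 FPKM on TCP, 29.8, 23.3 and 25.1 on PCL and 29.9, 24.8 and 19.0 on ISB-P. Again the constitutive gene was lowest and the induced gene highest on TCP. Psmb5 measured 115 FPKM on TCP, 131, 153 and 144 on PCL and 159, 162 and 139.8 on ISB-P. Psmb8 measured 15.5 FPKM on TCP, 17.0, 15.9 and 16.6 on PCL and 15.6, 13.2 and 15.1 on ISB-P, the narrowest range of the 6 genes in FPKM, with TCP inside the range of the film libraries. It was 1 of 2 members whose film libraries did not overlap, and the only one of them lower on ISB-P, with 16.5 ± 0.591 FPKM on PCL and 14.6 ± 1.26 on ISB-P (SD, n = 3 each). The difference did not pass the test (log2 fold change -0.16, SE 0.12, adjusted p = 0.760, limma).
Together, the induced genes made up 18.7% of the summed FPKM of the 6 genes on TCP, 15.2%, 11.6% and 12.5% on PCL and 12.8%, 11.3% and 9.92% on ISB-P. The share was therefore highest in the TCP library, and within each replicate number it was lower on ISB-P than on PCL, although the films overlapped. The TCP library was also the one with the most Cd14 and Cd68, and the part of such cells in this share was not tested.

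**Figure D2:**
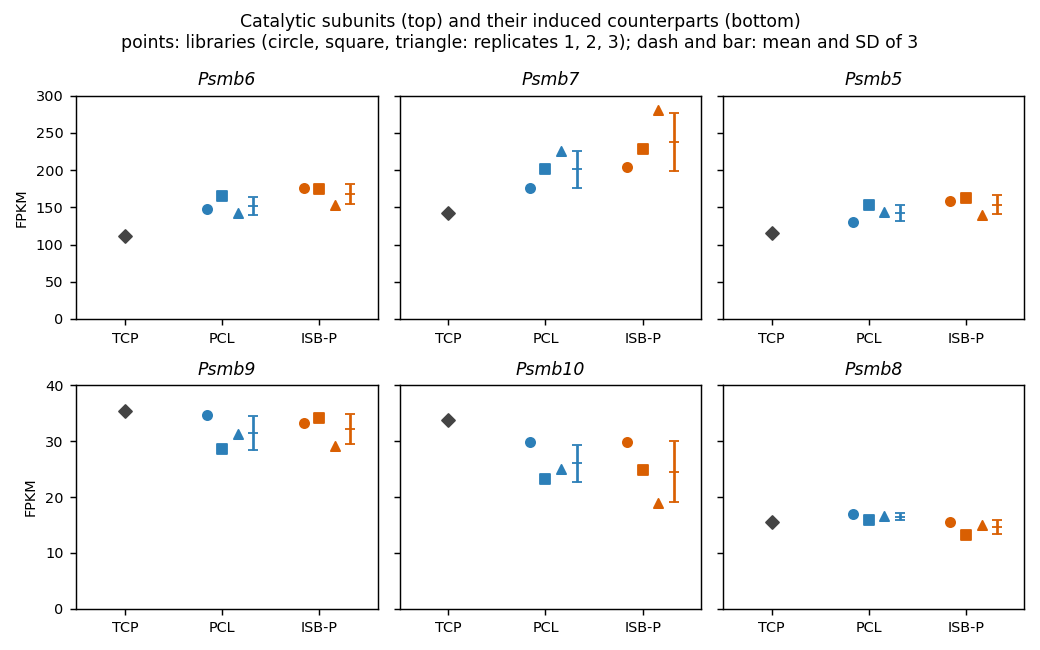
FPKM of the constitutive catalytic genes Psmb6, Psmb7 and Psmb5 (top) and of their induced counterparts Psmb9, Psmb10 and Psmb8 (bottom, on a narrower axis) in the TCP library and in replicates 1, 2 and 3 of each film, with the mean and SD of the films. TCP is the lowest library for each gene at the top and the highest for Psmb9 and Psmb10.

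The first comparison asked whether ISB-P differed from PCL. No proteasome gene passed the test. Of the 39 tested members, 0 were higher and 0 lower on ISB-P at an adjusted p under 0.05 (limma on log2(FPKM + 1), adjusted over 9467 genes), where 1.72% of all tested genes were called, 1.1% higher and 0.623% lower. None had an unadjusted p under 0.05 either, against 12.1% of all tested genes, and the smallest adjusted p was 0.668, for Psmc5. This fit keeps the spread between replicate numbers in its error, which limits what it could call. For Psmc6 the SE was 0.51 in this fit and 0.10 once the replicate number entered it, as described below. The study kept genes over 2-fold with p below 0.1 and normalized values over 16. These thresholds were applied here to limma p-values before adjustment. The last was read as a mean of 16 FPKM or more on either film. In this form 0 members passed (background 0.687%). The differences were small and mostly of the same sign. The log2 fold change was above 0 in 36 members and below 0 in 3 (Psmb8, Psmb10 and Psmd3). Of all 9467 tested genes, 5005 were above 0 and 4462 below. The members ran from -0.16 for Psmb8 to 0.50 for Psmc6, with a median of 0.15 (1.11-fold) beside 0.016 over all tested genes. The core particle had a median of 0.16 and the regulatory particle one of 0.15. By role the median was 0.21 in the outer ring, 0.20 among the ATPases and in the lid, 0.14 among the catalytic genes and in the base scaffold, 0.13 among the assembly chaperones, 0.12 among the structural inner ring genes and -0.099 among the induced catalytic genes.
These medians depended on how the libraries were scaled and on single libraries. Without ISB-P replicate 3 the members' median was 0.055, and without PCL replicate 3 it was 0.24. Each of these fits had no block and kept replicate 3 of the other film. Scaling to a common total moved the median of all tested genes by -0.10 on the log2 scale. It left the members at 0.051 with 27 of 39 above 0, upper quartile scaling left them at 0.083 with 31 above 0, and quantile normalization at 0.040 with 24 above 0. Relative to the median of all genes, the members lay 0.14 higher under scaling to the total and under upper quartile scaling, and 0.057 higher under quantile normalization.

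Within the replicate numbers, most members differed in the same direction in the values as deposited. ISB-P exceeded PCL in all 3 numbers for 28 of the 39 members (71.8%), where 30.5% of all tested genes did so, and was below it in all 3 for Psmb8 alone, where 27.7% of all tested genes did so. The median log2 ratio of the members was 0.16, 0.14 and 0.20 in replicates 1, 2 and 3. Over all tested genes it was 0.039, -0.018 and 0.014. These counts and medians were taken without scaling. Within every number the ISB-P library had the larger summed FPKM, at 592930 against 542922, 590628 against 559058 and 660124 against 597954. How many members would keep their direction in all 3 numbers after scaling was not tested. All ISB-P libraries lay above all PCL libraries for 1 member, the lid subunit Psmd13 (background 8.17%), and all below for 1, Psmb8 (background 9.54%).
When the replicate number entered the fit as a block, 10 of the 39 members (25.6%) were higher on ISB-P, where 13% of all tested genes were called higher, and 0 were lower, where 11.4% were. The 10 were Psma3, Psma5 and Psmb7 in the core particle and Psmc5, Psmc6, Psmd1, Psmd6, Psmd11, Psmd12 and Psmd14 in the regulatory particle. Each was higher on ISB-P in 3 of 3 replicate numbers, with ratios within a number from 1.10 (Psmd1, replicate 2) to 1.76 (Psmc6, replicate 3). The block fit tests these same differences, so their shared sign is no separate support. In the fit with no block, the size depended on which libraries were kept. Without ISB-P replicate 3, but with that of PCL, the log2 fold changes of the 10 ran from 0.033 (Psmd6) to 0.13 (Psmc5). Psma3 was then at 0.046, Psmd1 at 0.038 and Psmd14 at 0.050. Such a fit compares unlike replicate numbers. Within replicates 1 and 2, the log2 difference was 0.32 and 0.23 for Psmd14, and 0.22 and 0.17 for Psmd6. Only Psmc6 and Psmd14 were still called when the block was combined with each of the 3 scalings, which called 8.68%, 11.5% and 7.54% of all genes higher under upper quartile, quantile and total scaling. Under upper quartile and total scaling Psmb8 was called lower, where 16.5% and 22.3% of all tested genes were. Without replicate 1 of either film the block called 3 of the 39 members higher, beside 9.46% to 9.48% of all tested genes. Without replicate 2 it called 6, beside 12.5% of all tested genes, and without replicate 3 it called 21, beside 18.6% to 18.7%.

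**Figure D3:**
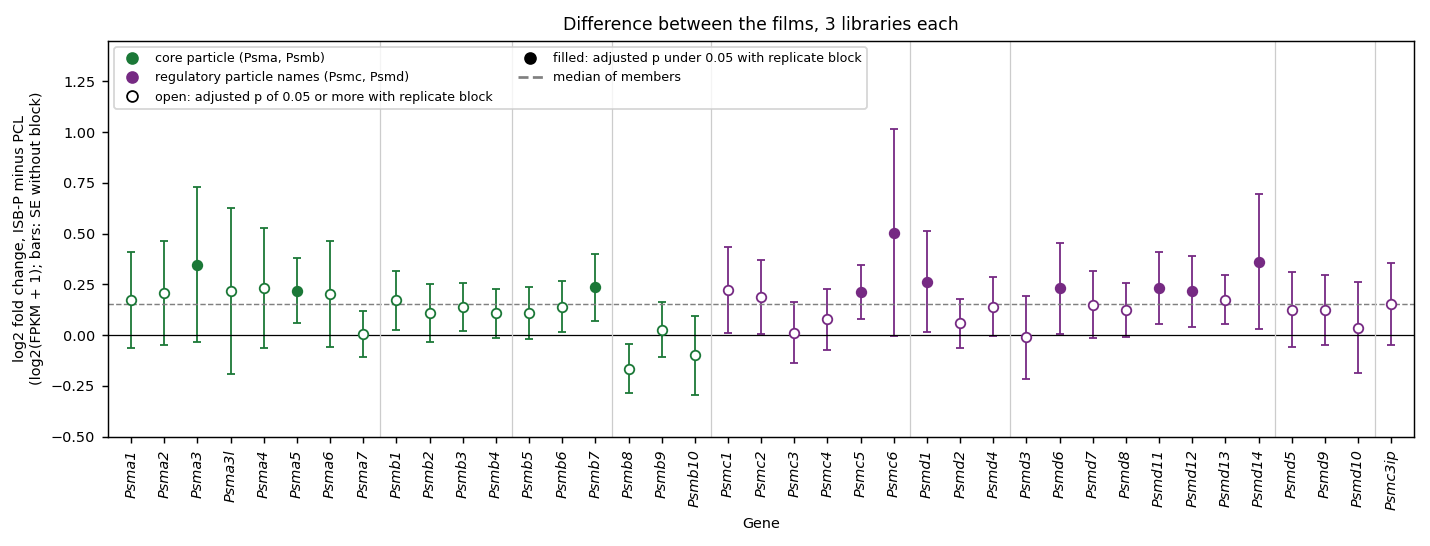
Log2 fold change of ISB-P over PCL for each tested member with its standard error (3 libraries per film, no block), ordered by role, with filled points for the 10 members called with the replicate block and a dashed line at the members' median of 0.15. Nearly every point lies above 0, the error bars of Psma3, Psma3l, Psmc6 and Psmd14 are the widest, and Psmb8 lies lowest.

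Among the ATPases, Psmc6 varied most of all members. Its promoter stretch is shown because Psmc6 had the largest log2 fold change between the films and between the replicate numbers and was the only member with TGANTCA, the letters of an AP-1 type site, which lay 111 bases before the start. Capitals mark these letters and an ETS type match.
Psmc6 (GRCr8, chr15:21022194-21022313, plus strand): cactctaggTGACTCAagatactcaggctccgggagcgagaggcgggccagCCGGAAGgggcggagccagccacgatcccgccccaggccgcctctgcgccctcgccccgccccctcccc
Psmc6 measured 42.8 FPKM on TCP, 50.2, 101 and 133 on PCL and 69.5, 119.7 and 234 on ISB-P. On both films replicate 1 was the lowest library and replicate 3 the highest, and within each number ISB-P exceeded PCL, while the films overlapped widely (log2 fold change 0.50, SE 0.51, adjusted p = 0.868) and the block gave an adjusted p of 0.00888. Without ISB-P replicate 3, but with that of PCL and no block, the log2 fold change was 0.054. Within replicates 1 and 2 the log2 difference was 0.46 and 0.24.
Psmc5 measured 87.2 FPKM on TCP, 119.8, 123 and 140.1 on PCL and 139, 140.3 and 165 on ISB-P. It had the smallest adjusted p of the members without the block (log2 fold change 0.21, SE 0.13), and the films met only at replicate 3 of PCL (140.1 FPKM), which lay above replicate 1 of ISB-P (139 FPKM). Psmc1 measured 78.2 FPKM on TCP, 103, 110.2 and 140.1 on PCL and 115, 124 and 179.8 on ISB-P, with an adjusted p of 0.0505 with the block. At the other end, Psmc3 measured 115 FPKM on TCP, 156, 124 and 143 on PCL and 164, 132 and 131 on ISB-P, a log2 fold change of 0.013. The remaining ATPase genes Psmc2 and Psmc4, between 87.3 and 187 FPKM over the 7 libraries, had log2 fold changes of 0.19 and 0.079.

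In the outer ring, which forms the gate of the core particle, Psma3 measured 27.9 FPKM on TCP, 25.7, 47.2 and 47.8 on PCL and 30.0, 53.4 and 75.9 on ISB-P, and Psma3l measured 98.6 FPKM on TCP, 119.9, 208 and 247 on PCL and 137, 194 and 363 on ISB-P. Summed, they measured 126 FPKM on TCP, 146, 255 and 295 on PCL and 167, 248 and 439 on ISB-P. The sum was lower on ISB-P than on PCL in replicate 2 and higher in the others. Psma3 alone was called with the block (adjusted p = 0.0368), whereas Psma3l (0.179) and the sum (0.126) were not. The values of either symbol alone are uncertain, since the counting could split reads between them.
Psma5 measured 97.8 FPKM on TCP, 147, 137 and 174 on PCL and 168, 158 and 209 on ISB-P (log2 fold change 0.22, SE 0.16, adjusted p = 0.751, with the block 0.0367). Psma7 measured 170.3 FPKM on TCP, 210.0, 192 and 215 on PCL and 217, 201 and 201 on ISB-P, the steadiest level of the ring over the film libraries. The other outer ring genes Psma1, Psma2, Psma4 and Psma6 had log2 fold changes between 0.17 and 0.23, with adjusted p-values between 0.0644 and 0.130 with the block, and each was higher on ISB-P in all 3 replicate numbers.
Among the structural inner ring genes, Psmb1, the most abundant of them, measured 212 FPKM on TCP, 227, 238 and 268 on PCL and 251, 256 and 324 on ISB-P. Psmb4 measured 171 FPKM on TCP, 191, 163 and 178 on PCL and 203, 185 and 184 on ISB-P. All 4 structural genes were higher on ISB-P in each replicate number, with log2 fold changes from 0.11 (Psmb4) to 0.17 (Psmb1), and none was called with the block. Over the 7 libraries Psmb2 and Psmb3 lay between 98.9 and 192 FPKM. Psmb7 was the only catalytic gene called with it (log2 fold change 0.24, SE 0.17, adjusted p = 0.733, with the block 0.0298).

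In the base, Psmd1, a large scaffold subunit, measured 71.6 FPKM on TCP, 87.2, 109 and 134 on PCL and 104, 119 and 179 on ISB-P (log2 fold change 0.26, with the block adjusted p = 0.0331). Its neighbour scaffold Psmd2 measured 100.1 FPKM on TCP, 128, 119 and 134 on PCL and 137, 123 and 138 on ISB-P, with all film libraries between 119 and 138 FPKM. The ubiquitin receptor Psmd4, between 82.9 and 117 FPKM over the 7 libraries, had a log2 fold change of 0.14.
In the lid, Psmd14, the deubiquitinase that cuts chains from the substrate, measured 59.7 FPKM on TCP, 73.5, 97.6 and 136 on PCL and 92.3, 114 and 198 on ISB-P. ISB-P exceeded PCL in each replicate number (log2 fold change 0.36, SE 0.33, adjusted p = 0.844, with the block 0.0113), and replicate 1 was the lowest and replicate 3 the highest library on both films. Psmd11, a lid scaffold, measured 35.8 FPKM on TCP, 66.6, 78.2 and 86.3 on PCL and 75.8, 89.3 and 108 on ISB-P. Psmd12 measured 69.4 FPKM on TCP, 83.5, 86.2 and 108 on PCL and 95.5, 98.8 and 129 on ISB-P, and Psmd6 measured 77.1 FPKM on TCP, 84.7, 83.8 and 118 on PCL and 98.8, 94.3 and 147 on ISB-P. The 3 genes had log2 fold changes of 0.23, 0.22 and 0.23, overlapping films, and adjusted p-values of 0.0396, 0.0436 and 0.0366 with the block.
Psmd13 measured 80.8 FPKM on TCP, 101, 98.8 and 109 on PCL and 115, 109 and 126 on ISB-P. Its ISB-P libraries all lay above its PCL libraries, with 103 ± 5.41 FPKM on PCL and 117 ± 8.27 on ISB-P (SD, n = 3 each), yet neither fit called it (adjusted p = 0.723, with the block 0.0812). Psmd3 measured 71.7 FPKM on TCP, 105, 84.0 and 80.2 on PCL and 113, 87.3 and 70.1 on ISB-P, the only lid gene with a log2 fold change below 0 (-0.011). The lid genes Psmd7 and Psmd8 lay between 64.3 and 129 FPKM, with log2 fold changes of 0.15 and 0.13. Of the base chaperones, Psmd5 measured 67.6 FPKM on TCP, 137, 163 and 183 on PCL and 146, 171 and 213 on ISB-P, Psmd9 measured 31.5 FPKM on TCP, 39.0, 30.0 and 30.5 on PCL and 42.7, 34.8 and 31.4 on ISB-P, and Psmd10 measured 7.94 FPKM on TCP, 8.96, 10.8 and 16.4 on PCL and 10.4, 12.3 and 13.6 on ISB-P. Their log2 fold changes were 0.13, 0.13 and 0.038. The meiotic factor Psmc3ip measured 1.77 FPKM on TCP, 8.70, 5.72 and 7.24 on PCL and 10.4, 6.70 and 7.42 on ISB-P, and its mean on each film was the lowest of the tested members.

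The labels number the libraries of each film 1, 2 and 3, without stating what the numbers stand for. More proteasome genes were called between these numbers than between the films, with or without the replicate block. The same held for all tested genes, of which the block called 24.4% between the films. In a fit with film and replicate number as terms, 22 of the 39 members (56.4%) were higher in replicate 3 than in replicate 1, where 38.5% of all tested genes were called higher, and 7 (17.9%) were lower, where 23.2% were called lower and 61.7% in either direction (2 libraries per number, limma, adjusted p under 0.05). The median log2 difference was 0.30 for the members and 0.095 for all tested genes. It was 0.29 in the core and 0.34 in the regulatory particle. As with the films, the split moved with the scaling: 14 members were higher and 13 lower under upper quartile scaling, 14 and 14 under quantile normalization and 17 and 11 under scaling to a common total. Of all tested genes, these scalings called 26.8%, 30.6% and 30.6% higher and 37.8%, 33.9% and 32.9% lower. The median of all genes moved by -0.20, -0.13 and -0.13 under these scalings. All 7 members called lower and 13 of the 22 called higher were called in the same direction under all 3 scalings. Of the single libraries, PCL replicate 1, PCL replicate 3 and ISB-P replicate 1 moved the number called lower most: 17 members were higher and 2 lower without the first, 23 and 11 without the second, and 15 and 1 without the last. Of all tested genes, 30.4%, 41.2% and 29.4% were then higher and 18.7%, 29.3% and 11.1% lower.
Of the roles with more than 1 gene, the outer ring had the highest share of members called higher. Of its 8 tested members, 7 were higher in replicate 3, with a median log2 difference of 0.72, and only Psma7 was not called (-0.037). Psma3l differed by 1.22 (SE 0.13, adjusted p = 1.96e-04), Psma3 by 1.09 and their sum by 1.20. Psma4 measured 90.4 FPKM on TCP, 107, 129 and 174 on PCL and 117, 141 and 236 on ISB-P, a log2 difference of 0.85. Psma6 measured 123 FPKM on TCP, 149.9, 190.0 and 233 on PCL and 167, 199.9 and 304 on ISB-P, a difference of 0.75. Psma2 measured 122 FPKM on TCP, 160.2, 210.2 and 233 on PCL and 177, 211 and 324 on ISB-P, and Psma1 measured 97.7 FPKM on TCP, 146, 182 and 219.7 on PCL and 159, 195 and 268 on ISB-P. In all 4 genes replicate 3 was the highest library of its film, and TCP lay below all film libraries.
The largest difference of any member was that of Psmc6, at 1.57 (2.96-fold, SE 0.13, adjusted p = 1.78e-04), followed in the regulatory particle by Psmd14 at 0.98 (1.98-fold, adjusted p = 1.78e-04). Within the ATPase ring, whose subunits are present in equal number in the complex, Psmc1, Psmc2 and Psmc5 were also higher, by 0.54, 0.36 and 0.23, whereas Psmc3 and Psmc4 were lower, with log2 differences of -0.23 and -0.29. The lid was divided in the same way: Psmd14, Psmd6, Psmd11, Psmd12 and Psmd7 were higher, Psmd3 (-0.53, the lowest of all members, adjusted p = 0.00165) and Psmd8 (-0.24) lower, and Psmd13 was not called. Psmb10 (-0.43), Psmd9 (-0.39) and Psmc3ip (-0.34) were the other members called lower.
The differences between the numbers had the same sign on both films in 37 of the 39 members, against 8383 of the 9467 tested genes, and were wider on ISB-P in 35, against 7153 of all tested genes. Replicate 1 was lowest and replicate 3 highest on both films for 18 members, where 32.4% of all tested genes had this order, and replicate 1 was highest and replicate 3 lowest on both for 2 (background 18%). Those of Psmb2, Psmd2, Psmd7 and Psmd10 were wider on PCL. Among these genes the films were farthest apart for Psmd10, with replicate 3 at 1.83 times replicate 1 on PCL and 1.31 times on ISB-P. Members with a larger difference between the numbers also tended to have a larger log2 fold change between the films (Pearson r = 0.764, Spearman rho = 0.746 across 39 genes, which share all 6 libraries and are not independent).

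**Figure D4:**
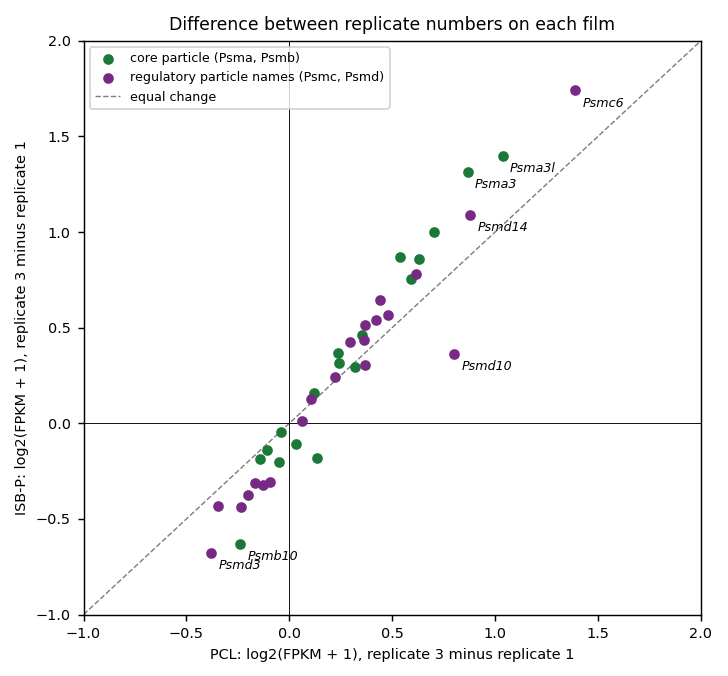
Difference in log2(FPKM + 1) between replicate 3 and replicate 1 for each tested member, on PCL (horizontal) and on ISB-P (vertical), with the line of equal change. The points run from Psmd3 and Psmb10 at the lower left to Psmc6 at the upper right, mostly farther from 0 on ISB-P than on PCL, with Psmd10 below the line.

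On culture plastic most proteasome genes had their lowest level. With 1 library there is no test, and the ratios below have no replicate check on the TCP side. TCP lay below all 6 film libraries for 31 of the 39 members (79.5%), where it did so for 29.7% of all tested genes. It was within their range for Psma3, Psmb4, Psmb8, Psmd3, Psmd4 and Psmd9 and above them for Psmb9 and Psmb10. The median log2 ratio to TCP was 0.44 on PCL (1.36-fold) and 0.58 on ISB-P (1.50-fold), beside 0.074 and 0.076 over all tested genes. Both ratios use the same TCP library. Under the 3 scalings TCP was lowest for 25 or 26 members, where it was lowest for 22.1% to 24.9% of all tested genes, and Psmb9 and Psmb10 stayed above all film libraries under each.
A fold of more than 2 over TCP was reached by 4 members on PCL (background 5.56%) and by 7 on ISB-P (background 8.98%), and 0 members lay more than 2-fold below TCP on either film (backgrounds 3.04% and 4.28%). On PCL these were Psmc6, Psmd11, Psmd5 and Psmc3ip. On ISB-P Psmc6 stood 3.25-fold, Psmd5 2.59-fold, Psmd11 2.50-fold, Psma3l 2.34-fold, Psmd14 2.24-fold, Psma1 2.11-fold and Psmc3ip 3.31-fold above TCP, all as ratios of FPKM + 1. For Psmd5, which encodes a chaperone of base assembly, and the lid gene Psmd11, even the lowest film library, at 137 and 66.6 FPKM, was far from the 67.6 and 35.8 FPKM on TCP. At a low level, Psmc3ip had the same trait, with its lowest film library at 5.72 FPKM and 1.77 FPKM on TCP. Psmb4 (0.052 on PCL and 0.16 on ISB-P) and Psmd9 (0.073 and 0.20) had log2 ratios close to those of all genes, and Psmb10 had the lowest (-0.36 and -0.44).
The distance from TCP depended on the replicate number as well. Against the TCP library, the median member stood at 0.30, 0.41 and 0.63 on the log2 scale in PCL replicates 1, 2 and 3, and at 0.47, 0.57 and 0.87 in the ISB-P libraries with these numbers.

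**Figure D5:**
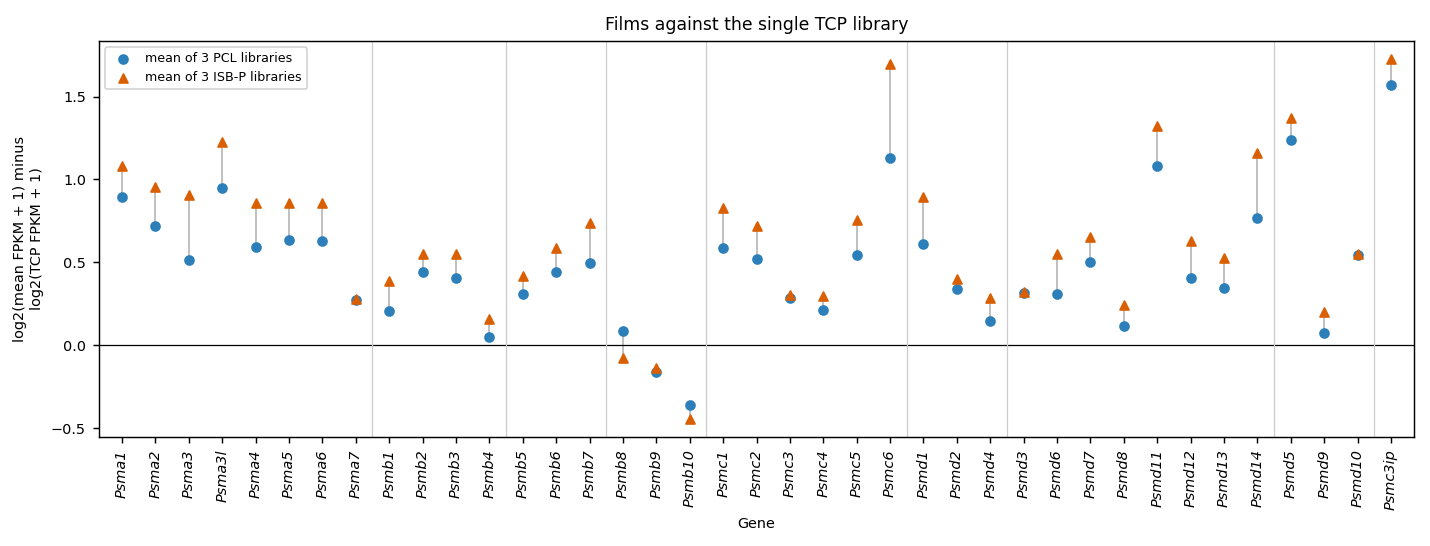
Log2 ratio of the mean of 3 PCL (circles) or 3 ISB-P libraries (triangles) to the single TCP library for each tested member, from FPKM + 1, ordered by role. Most members lie between 0 and 1 with ISB-P above PCL, Psmc6, Psmd5, Psmd11 and Psmc3ip lie highest, and Psmb9 and Psmb10 lie below 0 on both films.

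Around the complex, 39 further genes of the pathway were tested: activators and assembly factors, receptors and deubiquitinases that dock on the proteasome, a transcription factor of proteasome genes, Nfe2l2, with the unfoldase Vcp and its cofactors, ubiquitin genes, and genes of antigen processing. Nfe2l1, another transcription factor on the list, was not found among the gene symbols and was not examined. A single one of the 39 genes passed the test between the films, where 1.72% of all tested genes did. Zfand2a encodes a zinc finger protein that binds the proteasome and is induced by arsenite and other protein-damaging stress. The part of its promoter window farthest from the start is shown because it holds, in overlapping letters, both TGACNNNGC and TGANTCA, and a CCAAT box on the other strand.
Zfand2a (GRCr8, chr12:20275200-20275319, plus strand): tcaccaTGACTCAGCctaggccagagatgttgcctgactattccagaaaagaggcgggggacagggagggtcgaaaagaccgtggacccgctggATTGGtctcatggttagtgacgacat
Zfand2a measured 26.3 FPKM on TCP, 109.8, 118 and 122 on PCL and 554, 576 and 619 on ISB-P. The groups did not overlap (log2 fold change 2.31, SE 0.11, adjusted p = 9.90e-04, with the block 2.23e-07), and the replicate numbers of a film differed little, unlike those of most subunits.
With the replicate block, 9 of the 39 pathway genes were higher (background 13%) and 3 lower (background 11.4%). Those higher, beside Zfand2a, were the shuttle factors Ubqln1 (0.42) and Rad23b (0.24), the proteasome-bound deubiquitinase Usp14 (0.37), the proteasome activator Zfand5 (0.60), the thioredoxin-like Txnl1 (0.28), the Vcp cofactors Ufd1l (0.35) and Nploc4 (0.31), and the polyubiquitin gene Ubb (0.43), all as log2 fold changes. Ubqln1 measured 56.9 FPKM on TCP, 70.5, 69.2 and 64.4 on PCL and 94.7, 93.2 and 86.3 on ISB-P, with no overlap between the films. Ubb, unlike most outer ring genes, was highest in replicate 1 of each film, measuring 2985 FPKM on TCP, 2793, 2233 and 2072 on PCL and 4075, 3174 and 2457 on ISB-P. Usp14 measured 65.9 FPKM on TCP, 85.7, 143 and 181 on PCL and 101, 156 and 303 on ISB-P, and Zfand5 measured 48.7 FPKM on TCP, 56.8, 124 and 159 on PCL and 81.3, 147 and 333 on ISB-P, both lowest in replicate 1 and highest in replicate 3 of each film.
Among the genes lower with the block were the interferon-induced transcription factor Irf1 and the peptide-loading factor Tapbp (-0.32). Of the 6 tested genes of antigen processing and the interferon response, 3 were lower with the block, and 2 had log2 fold changes above 0 (0.20 for Erap1 and 0.27) and were not called. TCP lay above all film libraries for 3 of the 6 and within their range for the other 3. Irf1 measured 20.3 FPKM on TCP, 24.2, 22.6 and 24.4 on PCL and 15.2, 15.0 and 15.6 on ISB-P, with no overlap between the films (log2 fold change -0.60, SE 0.11, adjusted p = 0.0579, with the block 8.49e-04). Tap1, the peptide transporter gene that lies between Psmb8 and Psmb9 in the gene order of GRCr8, measured 38.6 FPKM on TCP, 30.5, 28.3 and 25.2 on PCL and 28.8, 25.5 and 20.6 on ISB-P, and like Psmb9 and Psmb10 it was highest on TCP. The macrophage gene Cd14 was lower on ISB-P as well, at 10.9 to 11.4 FPKM against 14.4 to 16.6 on PCL. The blood cell markers Cd68, Itgam and Ptprc overlapped between the films. The mean of Cd68 was 5.19 FPKM on PCL and 4.44 on ISB-P. At low levels, Itgam had means of 0.886 and 0.863 FPKM, and Ptprc had the higher mean on ISB-P (0.504 and 0.832). The part of blood cells in the values of Irf1, Tapbp and Tap1 was not tested. The log2 fold change of Tap1 between the films was -0.17 and was not called by either fit (adjusted p = 0.856, with the block 0.140).
None of the 8 tested activator, inhibitor and assembly genes was called between the films with or without the block. Psme1 and Psme2, which encode the interferon-induced cap, had log2 fold changes of -0.014 and 0.0069, and Psme4, which encodes the nuclear activator, 0.093. In the fit by replicate number, 20 of the 39 pathway genes were higher in replicate 3 and 8 lower, where 38.5% and 23.2% of all tested genes were. The highest was Zfand5 (1.75).

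The promoter windows of 35 members, running from 250 bases before to 50 bases after the RefSeq start on GRCr8, were searched on both strands for 7 motifs, each match being a description of letters and not of a bound factor. CCGGAAG, the ETS type, occurred in 12 of the 35 (34.3%), beside 8.75% of all 33469 windows. CCAAT occurred in 19 (54.3%), beside 37.5%, and GAAA, any 2 bases, GAAA, the interferon-stimulated type, in 5 (14.3%), beside 3.92%, among them the induced genes Psmb8 and Psmb10. TGACNNNGC, the antioxidant type, occurred in 7 of the 35, beside 12.1%: Psma3, Psmb2, Psmb5, Psmb6, Psmd1, Psmd3 and Psmd9. These 7 include genes that were higher and genes that were lower in replicate 3. TTCNNNGAA, the interferon gamma-activated (GAS) type, occurred in 4 (11.4%), beside 8.87%, TGANTCA in Psmc6 alone (2.86%), beside 7.33%, and GAA, any 2 bases, TTC, any 2 bases, GAA, the heat shock element, in 0 of 35 members, beside 0.798% of all windows. The GAS and interferon-stimulated types were added to the search after values had been seen.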

How the data were processed

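Values were analysed for 7 libraries of rMSCs, 3 on ISB-P, 3 on PCL and 1 on TCP, grouped by the sample labels. The methods state 3 samples per group, and other TCP libraries were not analysed here. The authors made TruSeq stranded mRNA libraries, read as pairs of 100 bases, and used ExDEGA. The submitters' processing notes name bcl2fastq 2.20.0.422, cutadapt 1.18, TopHat2 2.0.13, Cuffdiff 2.2.1 and the rn5 build, without their roles. The authors deposited a normalized value per gene, which was read here as FPKM from these tools and from the values; the unit itself is not named. Sums of FPKM are not read depths, so no counting error is given, and precision rests on the 3 libraries per film.

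The 9467 genes that reached 1 FPKM in 3 or more film libraries were tested on log2(FPKM + 1) with limma 3.58.1 in R 4.3.3 (mean-variance trend, two-sided, Benjamini-Hochberg over all tested genes, adjusted p under 0.05). The added 1 shrinks the fold changes of genes with low FPKM. The replicate comparison used film and replicate number as factors. TCP was compared by log2(mean + 1) without a test. The replicate numbers paired the films, most clearly for numbers 1 and 3. Deviations from the film mean correlated across all tested genes at r = 0.887, 0.431 and 0.867 for numbers 1, 2 and 3. Across the members these values were 0.977, 0.422 and 0.928, while PCL replicate 2 correlated with ISB-P replicate 3 at 0.533. A fit with the number as a block was therefore run beside the main one. The fits were tested on simulated data. Alternatives were 3 scalings, a pseudocount of 0.1, other filters and thresholds, TCP in the fit, no trend, and each library left out; combinations of block and scaling, and sums of Psma3 and Psma3l, were added after seeing the data.

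Members and lists were chosen with earlier results of these data known. Values in every library are given for the catalytic and induced genes, the 12 members with the smallest p-values between replicate numbers and the highest and lowest film difference of each role; members called only with the block, Psmd13, and the pathway genes beyond Zfand2a, Zfand5, Ubb, Irf1 and Tapbp were chosen after their values were seen. Pathway genes are 41 of 49 listed names, of which 39 were tested; Pomp and Tap2 were too low, and the values of some others are not reported here. Promoter windows, symbols and gene order came from RefSeq on GRCr8 (40 members matched by symbol, 35 with a window), not the build of the values. Figures used matplotlib 3.10.9 in Python 3.11.15.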

Additional observations from a re-analysis of the deposited data

How the results depend on the processing

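The scaling between libraries moved the medians between the films, all as log2 fold changes of ISB-P over PCL. Under upper quartile scaling they were 0.083 for all members, 0.077 for the core and 0.083 for the regulatory particle. Under quantile normalization they were 0.040, -0.0013 and 0.064, and under scaling to a common total 0.051, 0.041 and 0.051. Among the named members, these scalings turned the sign of differences near 0, none of which was called: upper quartile scaling for Psma7 -0.072, Psmb9 -0.049, Psmc3 -0.066, Psmd2 -0.020, Psmd10 -0.035; quantile normalization for Psma7 -0.15, Psmb4 -0.055, Psmb5 -0.028, Psmb6 -0.014, Psmb9 -0.034, Psmc3 -0.11, Psmd2 -0.061; and the common total for Psma7 -0.11, Psmb4 -0.0071, Psmb5 -0.0074, Psmb9 -0.085, Psmc3 -0.10, Psmd2 -0.056, Psmd10 -0.069. The median between replicates 3 and 1 was 0.078, 0.020 and 0.16 under the scalings in the same order, with 14, 14 and 17 members called higher and 13, 14 and 11 lower (all tested genes 26.8%, 30.6% and 30.6% higher, 37.8%, 33.9% and 32.9% lower). Replicate 2 against 1 gave 6 higher, 4 lower (all tested genes 16.8% and 8.51%) and a median of 0.047, and replicate 3 against 2 gave 15 higher, 0 lower (21.6% and 6.19%) and a median of 0.21. With the replicate numbers as a block, 10 members and 12 pathway genes were called between the films, 9 and 12 after Psmc3ip was left out and Psma3 and Psma3l were summed. The block combined with upper quartile scaling or the common total called 2 members higher, 1 lower and 12 pathway genes, and combined with quantile normalization 2 higher and 10. Pathway genes called without the block numbered 2 under scaling to a common total (Zfand2a and Irf1) and 4 at an unadjusted p under 0.05 (with Ubqln1 and Nploc4). The block changed no other call between the films.

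Leaving out each film library in turn gave medians of 0.055 to 0.24 for all members, 0.050 to 0.21 for the core and 0.068 to 0.26 for the regulatory particle, the lowest without ISB-P replicate 3, whose loss also left 21 members called with the block. Between replicates 3 and 1 the median ran from 0.25 to 0.31, with 15 to 23 members called higher and 1 to 11 lower, the fewest without ISB-P replicate 1 and the most without PCL replicate 3. The log2 ratio of PCL to TCP ran from 0.38 to 0.53, and that of ISB-P to TCP from 0.51 to 0.66. Members called between the films stayed at 0 and pathway genes at 1 without the block. Log2 fold changes that crossed 0 in these runs ranged as follows: Psmd3 -0.18 to 0.15, Psmd10 -0.14 to 0.26, Psma7 -0.041 to 0.040, Psmb9 -0.038 to 0.10, Psmc3 -0.094 to 0.088, Psmc3ip -0.013 to 0.28, Psmb10 -0.25 to 0.068. A pseudocount of 0.1, other filters on low values, TCP in the fit, no mean-variance trend and the study's thresholds changed no direction among the named members and no count by over 1.5 times. The causes of these shifts were not tested. The read depth is unknown, and 1 TCP library and 3 libraries per film limit what can be told apart.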

Other observations

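Members with longer genes in RefSeq on GRCr8 tended to have larger differences. Across 38 tested members with a genomic length, the log10 length correlated with the log2 difference between replicates 3 and 1 at Pearson r = 0.566 and Spearman rho = 0.581, and with the log2 fold change between the films at r = 0.601 and rho = 0.610. The genes share all 6 libraries and are not independent. Psmd14, the longest gene of the tested members, and Psmd11 were among those called with the replicate block, whereas Psmb6, Psmb10 and Psmb4, among the shortest, were not. The calls did not follow length throughout. Psmc5, with 5935 bases, was called, whereas Psmb2 and Psma6, with 32143 and 31018 bases, were not. The correlation with length over all tested genes was not computed. Over the same members the log2 mean level correlated with the difference between replicates at r = 0.25. The GC content of the promoter window, known for 34 of them, correlated with it at r = 0.133.

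Pomp, which encodes the maturation factor needed to assemble the core particle in every cell, was listed between 0 and 1.19 FPKM. Tap2, the partner of the peptide transporter gene Tap1, was listed at no more than 0.103 FPKM beside 20.6 to 38.6 FPKM for Tap1. Both stand beside Col1a2, listed at 0 in all 7 libraries, while Col1a1 stood between 3868 and 10406 FPKM.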
